A study of Mus musculus with 48 samples.

Results

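Cohesin peaks of cells carrying the R342C form of CTCF were set against those of cells carrying the wild-type (WT) form. Cohesin was followed through its subunit SMC3. The R342C list held 112747 SMC3 peaks and the WT list 71962, which makes 184709 of the 1444924 peaks in the 22 lists of the series. A WT SMC3 peak was called kept where it shared at least 1 bp with an R342C SMC3 peak and lost where it did not. An R342C SMC3 peak was called shared or gained by the same rule.

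Both groups were E14Tg2a cells, a line of mouse embryonic stem cells from 129/Ola, with an auxin degron on endogenous CTCF and a doxycycline-inducible, FLAG-tagged Ctcf transgene, either R342C or WT. Both were treated for 2 days with 500 µM indole-3-acetic acid (IAA), an auxin that triggers degradation of the endogenous protein, and 1 µg/ml doxycycline, which switches the transgene on. Peaks came from ChIPmentation, a form of ChIP in which a transposase adds the sequencing adapters on the beads. FLAG peaks marked the transgene protein in both groups, and a CTCF antibody was used in WT cells treated in this way and in untreated WT cells. The series has 48 samples in 24 groups of 2 replicates. Each list pooled the replicates of its group, so no spread between replicates and no test over samples could be had, and whether each transgene line was 1 clone is not given in the sources used here. Intervals are 95% Wilson intervals over peaks and cover counting error only. The peak names in column 4 carry the codes CMP112 and CMP113 in the R342C SMC3 list and CMP277 and CMP278 in the R342C FLAG list, whereas CMP131 and CMP135 stand in both WT lists. Both SMC3 lists carry the tag b1, whose meaning is not stated. Peak lists hold no marker expression, so the cell identity rests on the labels.

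Cohesin is a ring-shaped complex of SMC1, SMC3, RAD21 and a STAG subunit that extrudes loops of chromatin. CTCF binds DNA through an array of zinc fingers, of which R342C changes 1 residue, and stops extruding cohesin when the N-terminal side of the protein faces it. Cohesin therefore piles up at bound CTCF sites. It is also found at promoters and enhancers without CTCF, where NIPBL loads it and transcription moves it.

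Promoter windows that hold a CTCF motif core are shown as examples of the classes used throughout. They were picked for holding a match and do not stand for their classes. A promoter window runs from 250 bases before to 50 bases after a gene's start, from RefSeq on GRCm38.p6, the assembly that mm10 names. Windows were searched on both strands for a core of the CTCF motif, which is CC, any 3 bases, AG, any 2 bases and GGC, and each match is in capitals; a match to the opposite strand is shown as it reads on the printed strand. The windows shown are the strongest with a match, by SMC3 value, in each set. The first pair had WT FLAG, R342C FLAG and a kept SMC3 peak: Gm32834 at chr13:51418637-51418936 on the minus strand and C330018A13Rik at chr5:116123364-116123663 on the plus strand. The next pair had WT FLAG and a kept SMC3 peak without R342C FLAG: Grik4, a kainate receptor subunit, at chr9:42944322-42944621 on the minus strand, and Mgat5b, a glycosyltransferase, at chr11:116918613-116918912 on the plus strand. Gclm, a subunit of the enzyme that starts glutathione synthesis, at chr3:122245307-122245606 on the plus strand, and Det1, a ubiquitin ligase component, at chr7:78847162-78847461 on the minus strand, had WT FLAG and a lost SMC3 peak. Scn2a, a voltage-gated sodium channel, at chr2:65668436-65668735 on the plus strand, had R342C FLAG without WT FLAG and a gained SMC3 peak. Gdpgp1 at chr7:80232643-80232942 on the plus strand had a gained SMC3 peak and no FLAG or CTCF antibody peak.
Gm32834: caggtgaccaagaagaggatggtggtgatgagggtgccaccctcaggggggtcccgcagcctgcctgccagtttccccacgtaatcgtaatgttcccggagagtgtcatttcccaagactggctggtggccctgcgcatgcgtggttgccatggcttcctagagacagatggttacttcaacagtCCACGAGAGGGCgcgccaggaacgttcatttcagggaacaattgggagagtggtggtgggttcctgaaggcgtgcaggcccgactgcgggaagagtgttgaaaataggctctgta
C330018A13Rik: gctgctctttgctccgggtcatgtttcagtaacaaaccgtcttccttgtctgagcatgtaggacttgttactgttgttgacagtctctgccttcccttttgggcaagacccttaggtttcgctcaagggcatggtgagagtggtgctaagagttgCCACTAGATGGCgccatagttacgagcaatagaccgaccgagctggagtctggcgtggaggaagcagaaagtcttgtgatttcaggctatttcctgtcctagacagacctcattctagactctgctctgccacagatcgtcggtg
Grik4: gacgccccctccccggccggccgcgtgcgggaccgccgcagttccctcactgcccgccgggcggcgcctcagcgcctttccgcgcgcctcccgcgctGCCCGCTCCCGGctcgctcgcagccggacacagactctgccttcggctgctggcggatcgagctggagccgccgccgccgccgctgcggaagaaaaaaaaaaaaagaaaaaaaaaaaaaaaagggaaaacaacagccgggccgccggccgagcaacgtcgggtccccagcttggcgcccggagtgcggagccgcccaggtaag
Mgat5b: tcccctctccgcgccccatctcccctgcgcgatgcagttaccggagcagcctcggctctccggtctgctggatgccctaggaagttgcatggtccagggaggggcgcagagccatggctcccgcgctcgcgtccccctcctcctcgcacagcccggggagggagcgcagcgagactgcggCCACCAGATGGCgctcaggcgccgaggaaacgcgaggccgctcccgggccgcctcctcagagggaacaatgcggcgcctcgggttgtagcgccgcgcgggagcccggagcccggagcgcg
Gclm: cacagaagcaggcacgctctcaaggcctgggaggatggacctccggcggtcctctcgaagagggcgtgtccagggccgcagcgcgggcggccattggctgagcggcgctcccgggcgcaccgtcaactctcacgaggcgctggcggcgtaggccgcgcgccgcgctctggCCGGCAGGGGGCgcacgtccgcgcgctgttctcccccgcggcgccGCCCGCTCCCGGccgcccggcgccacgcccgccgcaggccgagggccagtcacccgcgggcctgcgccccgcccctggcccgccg
Det1: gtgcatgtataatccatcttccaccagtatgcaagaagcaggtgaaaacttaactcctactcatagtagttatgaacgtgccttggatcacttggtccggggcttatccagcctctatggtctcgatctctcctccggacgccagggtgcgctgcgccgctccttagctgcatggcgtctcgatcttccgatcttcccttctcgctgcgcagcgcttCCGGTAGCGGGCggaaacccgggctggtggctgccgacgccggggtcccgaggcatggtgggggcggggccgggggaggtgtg
Scn2a: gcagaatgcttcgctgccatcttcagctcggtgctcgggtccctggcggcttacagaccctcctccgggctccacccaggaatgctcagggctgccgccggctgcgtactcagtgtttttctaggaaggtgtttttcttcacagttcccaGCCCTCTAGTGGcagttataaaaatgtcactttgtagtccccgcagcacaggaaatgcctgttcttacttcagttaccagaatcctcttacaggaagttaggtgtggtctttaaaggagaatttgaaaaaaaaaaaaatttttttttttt
Gdpgp1: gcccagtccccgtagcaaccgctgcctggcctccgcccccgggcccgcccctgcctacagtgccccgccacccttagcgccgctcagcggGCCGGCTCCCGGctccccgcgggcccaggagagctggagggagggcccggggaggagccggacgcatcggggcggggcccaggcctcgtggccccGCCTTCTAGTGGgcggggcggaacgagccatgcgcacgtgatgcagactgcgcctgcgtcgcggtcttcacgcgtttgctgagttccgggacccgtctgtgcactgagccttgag

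Of all 32851 promoter windows, 8.61% (8.31 to 8.92) held a match. Windows with WT FLAG and a kept SMC3 peak held one in 250 of 467 (53.5%, 49.0 to 58.0) where R342C FLAG was present and in 51 of 166 (30.7%, 24.2 to 38.1) where it was absent. Windows with WT FLAG and a lost SMC3 peak held one in 13 of 21 (61.9%, 40.9 to 79.2). Of the 4 windows with R342C FLAG outside the WT FLAG list and a gained SMC3 peak, 2 held a match. Windows without any FLAG or CTCF antibody peak stayed close to the share of all windows, at 9.44% (8.31 to 10.7) of 2266 with gained SMC3, 8.67% (7.55 to 9.95) of 2110 with kept SMC3 and 11.6% (8.48 to 15.6) of 311 with lost SMC3. A match describes letters in the window and does not show that a protein bound there.

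R342C cells kept nearly all WT cohesin peaks that lay at CTCF sites of the WT transgene, and most of the difference between the lists lay elsewhere. In all, 52724 of 71962 WT SMC3 peaks were kept (73.3%, 72.9 to 73.6) and 19238 were lost (26.7%). In the R342C list 63195 of 112747 peaks were gained (56.1%). At WT FLAG peaks 11943 of 12363 WT SMC3 peaks were kept (96.6%, 96.3 to 96.9). At other CTCF antibody peaks, those outside the WT FLAG list, 16687 of 22226 were kept (75.1%, 74.5 to 75.6), and away from both 24094 of 37373 (64.5%, 64.0 to 65.0). These shares depend on the overlap asked for. With a reciprocal overlap of 50% they were 43.9% of all, 76.9% at WT FLAG, 41.5% at other antibody peaks and 34.5% away from both.

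The lost peaks numbered 420 at WT FLAG peaks, 5539 at other CTCF antibody peaks and 13279 away from both, so 69.0% of all losses were away from CTCF and 2.18% at WT FLAG. Gained peaks were placed much alike. At WT FLAG peaks 788 of 12644 R342C SMC3 peaks were gained (6.23%, 5.82 to 6.67), at other CTCF antibody peaks 17086 of 32740 (52.2%, 51.6 to 52.7), and away from both 45321 of 67363 (67.3%, 66.9 to 67.6). The peaks away from CTCF made up 71.7% of all gains, beside 59.7% of the whole R342C list. Their 69.0% of losses stands beside 51.9% of the whole WT list. SMC3 peaks at WT FLAG thus formed 11.2% of the R342C list and 17.2% of the WT list, although their numbers, 12644 in R342C and 12363 in WT, were close. The lists differ in length, covered 38943 kb in R342C and 22433 kb in WT, and their depth is unknown, so whether the extra R342C peaks reflect more cohesin or a more sensitive list cannot be told apart.

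**Figure D1:**
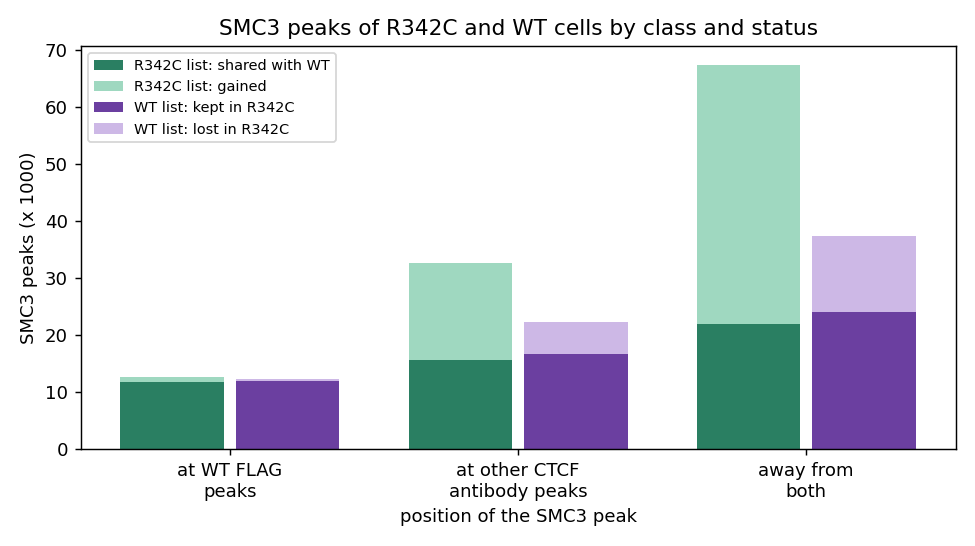
SMC3 peaks (vertical axis, in units of 1000) by position, with the R342C list as the left bar and the WT list as the right bar of each pair; dark parts are shared or kept peaks and light parts gained or lost ones. Gained and lost peaks are few at WT FLAG peaks, 788 and 420, and many away from CTCF, 45321 and 13279.

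CTCF antibody peaks of treated and of untreated WT cells gave similar values. Outside the WT FLAG list, WT SMC3 peaks with a treated antibody peak were kept in 75.4% of 16223 cases (74.7 to 76.0) and those with only an untreated one in 74.3% of 6003 (73.1 to 75.4). At the 178 WT SMC3 peaks with WT FLAG but no antibody peak, 146 were kept (82.0%, 75.7 to 87.0). A treated antibody peak was present at 388 of the 420 lost peaks with WT FLAG (92.4%, 89.4 to 94.6), against 11784 of 11943 kept ones (98.7%, 98.4 to 98.9).

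Lost peaks were weaker and narrower than kept ones within the WT list. The deposited value is a unitless score per peak from the authors' caller. Its size is compared only within a list; between lists only ranks are compared, and values printed for both lists at a site stand side by side. Its median was 2.81 for lost and 3.34 for kept WT SMC3 peaks, and their median widths were 161 and 265 bp. At WT FLAG peaks the medians were 3.48 for lost and 6.73 for kept peaks. They were 2.83 and 3.25 at other CTCF antibody peaks and 2.78 and 3.07 away from both. The R342C list showed the same order, with a median of 2.80 for gained and 3.73 for shared peaks, and widths of 186 and 379 bp. The strongest peaks were kept in every class and the classes came apart among the weak ones.

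By deciles of the WT list, the weakest (values up to 2.47) kept 69.6% at WT FLAG peaks (60.1 to 77.7, 102 peaks), 59.1% at other CTCF antibody peaks (57.0 to 61.2) and 47.7% away from both (46.3 to 49.0). In the fifth decile the shares were 81.4%, 73.8% and 66.8%. In the eighth they met, at 90.9% (88.9 to 92.6), 89.9% (88.7 to 90.9) and 89.9% (88.8 to 90.9). In the strongest decile, values of 6.15 and above, 6757 of 6765 peaks at WT FLAG, 313 of 314 at other antibody peaks and 60 of 60 away from both were kept. Of the 12363 WT SMC3 peaks at WT FLAG, 6765 were in that decile, so the high share kept there goes with high WT values.

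**Figure D2:**
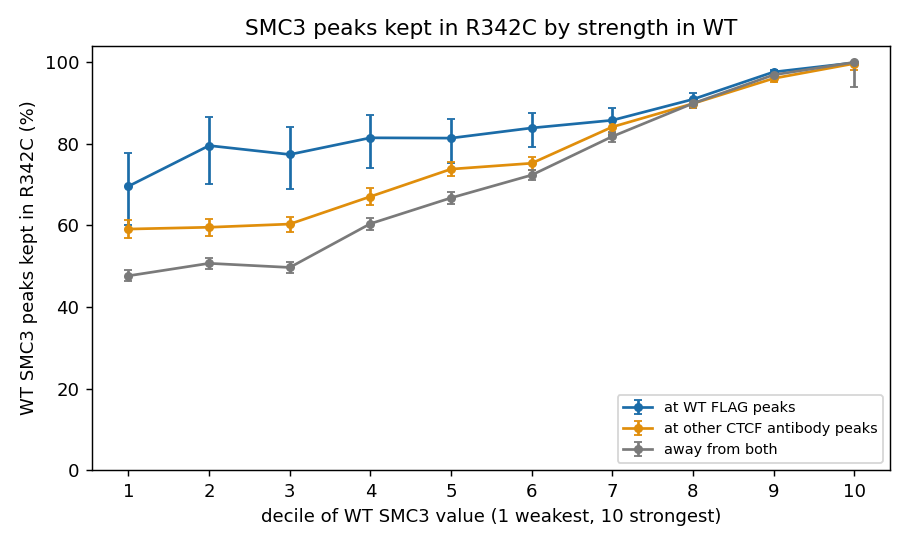
Share of WT SMC3 peaks kept in R342C (%, vertical axis) by decile of the deposited WT value (horizontal axis) for the 3 classes; bars are 95% Wilson intervals. The classes differ in the weakest decile, 69.6%, 59.1% and 47.7%, and meet in the eighth, near 90%.

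Read from the R342C list, peaks of the weakest decile were shared with WT in 52.6% of cases at WT FLAG (42.7 to 62.4), 23.8% at other antibody peaks and 16.1% away from both. Those of the strongest decile were shared in 99.2%, 92.8% and 95.6%. Among kept peaks, the values of the R342C and WT lists ranked alike at WT FLAG (Spearman rho 0.85 over 11943 peaks) and less so at other antibody peaks (0.40) and away from both (0.39). These coefficients describe the peaks, which share libraries and differ in range between classes.

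Many lost peaks outside WT FLAG had an R342C peak close by. The nearest R342C SMC3 peak lay within 500 bp of 41.3% of lost peaks at other antibody peaks and of 26.8% away from both, at median gaps of 721 and 1843 bp. At WT FLAG 9.05% had one that close, and the median gap was 9069 bp. For gained peaks the median gaps to the nearest WT peak were longer, 10869 bp at WT FLAG, 1239 bp at other antibody peaks and 3912 bp away from both. They run to the WT list, which holds fewer peaks (71962) than the R342C list (112747), so gaps of gained and lost peaks are not measured alike. Just inside the rule, 2.59% of kept WT peaks touched more than 1 R342C peak and 8.06% of shared R342C peaks touched more than 1 WT peak.

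At WT FLAG peaks cohesin was kept more often where the R342C protein was also detected. WT SMC3 peaks at WT FLAG were kept in 9942 of 10077 cases with an R342C FLAG peak (98.7%, 98.4 to 98.9) and in 2001 of 2286 without one (87.5%, 86.1 to 88.8). The difference was 11.1 percentage points (9.81 to 12.6). Peaks with R342C FLAG were also stronger, with a median WT SMC3 value of 7.19 against 4.68 without it, and a median WT FLAG value of 4.33 against 2.97. Weighted over deciles of WT SMC3 value, the difference was 5.09 points.

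In the fifth decile, 105 of 113 peaks with R342C FLAG were kept (92.9%, 86.6 to 96.4), against 57 of 86 without it (66.3%, 55.8 to 75.4). In the seventh, the shares were 94.6% (91.2 to 96.8) with and 72.0% (64.8 to 78.3) without. In the strongest decile they were 6151 of 6154 and 606 of 611. In the weakest deciles the intervals overlapped, with 40 of 53 kept with R342C FLAG and 31 of 49 kept without it.

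**Figure D3:**
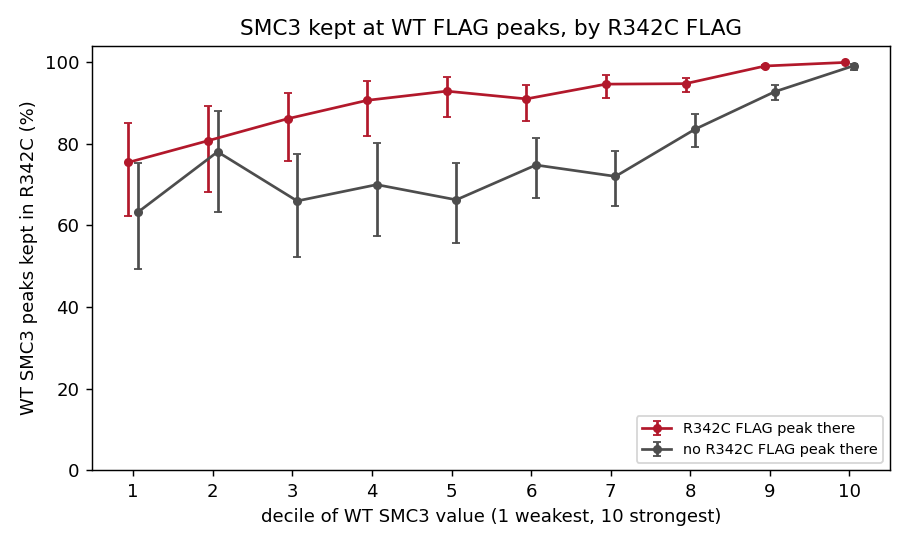
Share of WT SMC3 peaks at WT FLAG peaks that were kept in R342C (%, vertical axis), by decile of WT SMC3 value, with an R342C FLAG peak (red) and without one (grey); bars are 95% Wilson intervals. In the middle deciles the red points lie above the grey ones, 92.9% against 66.3% in the fifth, and in the strongest both are above 99%.

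R342C FLAG was present at 135 of the 420 SMC3 peaks lost at WT FLAG (32.1%, 27.9 to 36.8), against 9942 of the 11943 kept ones (83.2%, 82.6 to 83.9). At other CTCF antibody peaks, SMC3 was kept in 1096 of 1201 cases with R342C FLAG (91.3%, 89.5 to 92.7) and in 15591 of 21025 without it (74.2%, 73.6 to 74.7). Away from both, only 48 WT SMC3 peaks had R342C FLAG, of which 16 were kept.

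Few gained peaks overlapped an R342C FLAG peak. The R342C FLAG list held 16687 peaks, against 116973 in the CTCF antibody list of treated WT cells. A missing FLAG peak therefore does not show that the protein was absent. R342C FLAG was present at 1374 of 63195 gained SMC3 peaks (2.17%, 2.06 to 2.29), against 10961 of 49552 shared ones (22.1%, 21.8 to 22.5). Gained peaks at WT FLAG had it in 539 of 788 cases (68.4%, 65.1 to 71.6), those at other antibody peaks in 759 of 17086 (4.44%) and those away from both in 76 of 45321 (0.168%). Shared R342C peaks had it in 83.5% of cases at WT FLAG, 6.68% at other antibody peaks and 0.0907% away from both. Within classes the contrast was thus smaller than over all peaks, and away from both it ran the other way.

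Cohesin was also counted from the FLAG lists, beside the whole R342C SMC3 list being 1.57 times as long as the WT one. At the 5508 R342C FLAG peaks outside the WT FLAG list, an SMC3 peak was present in R342C at 40.4% (39.1 to 41.7) and in WT at 25.8% (24.6 to 27.0), a ratio of 1.57, close to that of the whole lists. It was present in R342C alone at 959 of them (17.4%) and in WT alone at 152 (2.76%). Of the 959, 91.6% had a CTCF antibody peak in WT cells. At the 4282 WT FLAG peaks without R342C FLAG, SMC3 was present at 54.3% in R342C (52.8 to 55.8) and at 54.8% in WT (53.3 to 56.3), in R342C alone at 6.31% and in WT alone at 6.82%. At the 11110 WT FLAG peaks with R342C FLAG it was present at 95.3% in R342C and 91.4% in WT.

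The strongest kept peaks had high values in both lists. A peak 60.6 kb from Sestd1 (chromosome 2, 77341190 to 77342747) had the highest value of each list, 48.1 in R342C and 44.0 in WT. One within Pink1, the kinase of mitochondrial quality control (chromosome 4, 138319492 to 138320797), had 32.7 in R342C and 33.1 in WT. Those near Lrrc74a, Dtnbp1, a subunit of a lysosome-related transport complex, and Fnbp1l, a membrane-bending actin regulator, were the others of the 5 strongest with R342C FLAG. All 5 also had SMC3 in each of the 8 other mutants.

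Strong cohesin peaks could also be kept without an R342C FLAG peak. By WT value, the strongest was 4.25 kb from Man2b2, a lysosomal mannosidase (chromosome 5, 36834899 to 36836903), with SMC3 values of 24.2 in R342C and 26.9 in WT and a WT FLAG value of 2.00. The peak within Diaph1, an actin-nucleating formin (chromosome 18, 37879957 to 37880799), had 25.5 in R342C and 22.4 in WT, with a WT FLAG value of 4.06. The others of the 5 strongest by WT value were near Sdr9c7 and 1700001O22Rik and within Exoc3l, and all 5 had both CTCF antibody peaks. Their WT FLAG values, from 1.73 to 4.06, were low to moderate beside the list's median of 3.66.

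The strongest losses at WT FLAG need a caution on the lists. Names carry the caller's running number, and 1.44% of numbers in the R342C SMC3 list and 1.63% in the WT SMC3 list are missing. A number is missing between the R342C peaks that flank each of the pair of strongest losses. These lay within Ccdc192 (chromosome 18, 57562745 to 57563638), with a WT value of 9.76, and within Ulk4, a kinase-family gene (chromosome 9, 121247911 to 121248849), with 7.08. R342C FLAG was present at the Ccdc192 site, with a value of 7.94, and absent at the Ulk4 site. Neither had a CTCF antibody peak, and SMC3 was present there in 8 and 7 of the 8 other mutants. Whether a called peak was removed there before deposit was not tested. Such a gap lay at 184 of all 19238 lost peaks (0.956%), at 6 of the 420 at WT FLAG, and at 760 of the gained peaks (1.20%).

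Further strong losses at WT FLAG had antibody peaks and no such gap. They included a peak within Mylk, the myosin light chain kinase (chromosome 16, 34967413 to 34967735), with a WT value of 6.82, and one 678 kb from Gbe1, the glycogen branching enzyme (chromosome 16, 71247652 to 71247795), with 6.55. Another was 86.1 kb from Etaa1, an activator of the ATR kinase (chromosome 11, 17852515 to 17852657), with 6.36 and an R342C SMC3 peak 618 bp away. R342C FLAG was present at the Gbe1 site with a value of 2.66 and absent at the Mylk and Etaa1 sites. A peak 0.285 kb from Aldoart2, a sperm aldolase (chromosome 12, 55564705 to 55564919), was lost with an R342C FLAG value of 3.59 and a WT FLAG value of 2.83. SMC3 was missing at the Gbe1 and Aldoart2 sites in 5 of the 8 other mutants.

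At other CTCF antibody peaks the strongest losses were near Fcgr2b, an inhibitory Fc receptor (chromosome 1, 170996785 to 170997010), with a WT value of 6.55, and Kcna7, a potassium channel (chromosome 7, 45403612 to 45403835), with 6.01. Peaks near Rasgef1c, Traf1 and Rab38 each had 5.88. The Kcna7 site held an R342C FLAG peak of 2.60 and the others none. The Rab38 peak (chromosome 7, 88544543 to 88544703) was found in 1 of the 8 other mutants and each of the rest in 5. An R342C SMC3 peak lay 235 bp from the Rasgef1c loss and 557 bp from the Kcna7 loss.

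Away from CTCF even the strongest losses were modest. A peak 166 kb from Ptprz1, a receptor phosphatase (chromosome 6, 22708610 to 22708826), had a WT value of 4.75. Peaks near Osr1, Arl15, Grin2a, an NMDA receptor subunit, and Pds5b, a cohesin regulator, each had 4.68. None held R342C FLAG. All but the Ptprz1 peak had an R342C SMC3 peak within 753 bp.

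Gains at WT FLAG included peaks in the strongest decile of the R342C list. The strongest was 1.36 kb from Alk, a receptor tyrosine kinase (chromosome 17, 72606063 to 72606550), with an R342C SMC3 value of 11.3, R342C FLAG of 16.8 and WT FLAG of 4.38; all 8 other mutants had SMC3 there. The others were near Slc44a3 (chromosome 3, 121550446 to 121550644, 11.1), within Piezo2, a mechanosensitive channel (chromosome 18, 63131129 to 63131270, 8.93), within Myo5b, a motor protein (chromosome 18, 74722961 to 74723128, 8.53), and near Ppm1b, a phosphatase (chromosome 17, 84938300 to 84938642, 8.40). All 5 had R342C FLAG, and between 5 and 8 of the other mutants had SMC3 there. At the Slc44a3 and Myo5b sites a WT SMC3 peak lay 164 and 145 bp away.

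Among other CTCF antibody peaks the strongest gains were within Man1c1, a Golgi mannosidase (chromosome 4, 134701717 to 134702508), at 10.4, and 4.51 kb from Mcfd2, a secretory cargo cofactor (chromosome 17, 87248837 to 87249933), at 10.1. Both had R342C FLAG, of 6.64 and 10.9, and no WT FLAG. Sites near Heatr1, a ribosome biogenesis factor, and Dpy30, a subunit of histone methyltransferase complexes, also had R342C FLAG without WT FLAG, whereas one near Gm6619 had neither. The 5th strongest gain at R342C FLAG outside the WT FLAG list lay within Pi4kb, a lipid kinase (chromosome 3, 94996631 to 94997401), at 8.10, with SMC3 in all 8 other mutants. The Mcfd2 and Heatr1 sites had it in 3.

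Away from CTCF the strongest gain was 21.4 kb from Zim1, an imprinted zinc-finger gene (chromosome 7, 6652911 to 6653060), at 7.27; no other mutant had SMC3 there. Peaks within Chpt1, a phospholipid synthesis enzyme (chromosome 10, 88482976 to 88483187), and near Foxn2, a forkhead factor (chromosome 17, 88346645 to 88347433), each had 6.80, and SMC3 was present at each in 7 of the 8 other mutants. The gain within Dpp6, a potassium channel partner, also recurred in 7. A WT SMC3 peak lay 508 bp from the Chpt1 gain and 276 bp from the Dpp6 gain. A number is missing from the WT list at the gain near Dync1i1, a dynein chain.

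Promoters kept cohesin more often than other places. WT SMC3 peaks over a promoter window were kept in 3769 of 4292 cases (87.8%, 86.8 to 88.8), against 72.3% (72.0 to 72.7) of 67670 elsewhere. Away from CTCF the shares were 84.0% (82.3 to 85.5) over promoters and 63.3% (62.8 to 63.8) elsewhere, 20.7 points apart and 18.3 after weighting over deciles of WT value. At other antibody peaks they were 89.0% and 74.0%, and at WT FLAG 97.1% and 96.6%. In the weakest decile away from CTCF, 142 of 189 promoter peaks were kept (75.1%, 68.5 to 80.8), against 46.6% (45.2 to 48.0) elsewhere.

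Promoters accordingly made up 2.72% of lost and 7.15% of kept WT peaks, and 4.68% of gained and 8.23% of shared R342C peaks. Gene bodies held 59.0% of lost and 53.8% of kept peaks, and 59.7% of gained and 53.5% of shared ones. Of all promoter windows, 3330 held a gained peak (10.1%), 4363 a kept one (13.3%) and 508 a lost one (1.55%).

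The share kept was similar on most chromosomes and lowest on chromosomes 5 and 6. On the 17 autosomes other than 5 and 6, between 72.1% and 77.4% of WT SMC3 peaks were kept, and the R342C list held 1.54 to 1.81 times as many peaks as the WT list. Chromosome 5 kept 68.0% (ratio 1.33) and chromosome 6 kept 66.9% (ratio 1.26). Chromosomes 5 and 6 also held 8.61% and 9.74% of R342C SMC3 peaks and 10.1% and 12.2% of WT SMC3 peaks, against 8.53% and 6.95% of WT FLAG peaks. The X chromosome held 416 R342C and 230 WT SMC3 peaks and kept 87.8%. By class it kept 96.1% at WT FLAG and 72.0% away from both. On the 17 autosomes, 63.5% to 69.3% were kept away from both. Over 259 bins of 5 Mb with at least 100 WT peaks, the median share kept was 75.0%. The lowest, 23.1%, was from 150 to 155 Mb of chromosome 5, with 88 R342C and 324 WT peaks, and the next lowest was 49.1%.

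From 148.5 Mb to its end, a boundary chosen after its values were seen, chromosome 5 held 333 R342C and 811 WT SMC3 peaks. Each of the 9 mutant lists held 198 to 443 there, 0.288% to 0.471% of its peaks, against 1.13% of the WT list. The FLAG lists held 59 peaks there in R342C (0.354% of the list) and 79 in WT (0.513%). In the CTCF antibody lists the shares were 0.543% in treated and 0.532% in untreated WT cells. Of the WT SMC3 peaks there 270 were kept (33.3%, 30.1 to 36.6), with 70 of 75 at WT FLAG, 128 of 364 at other antibody peaks and 72 of 372 away from both. The region held 541 of the 19238 losses (2.81%). The excess of SMC3 peaks is thus one of the WT list, and whether DNA copy number differs there was not tested.

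**Figure D4:**
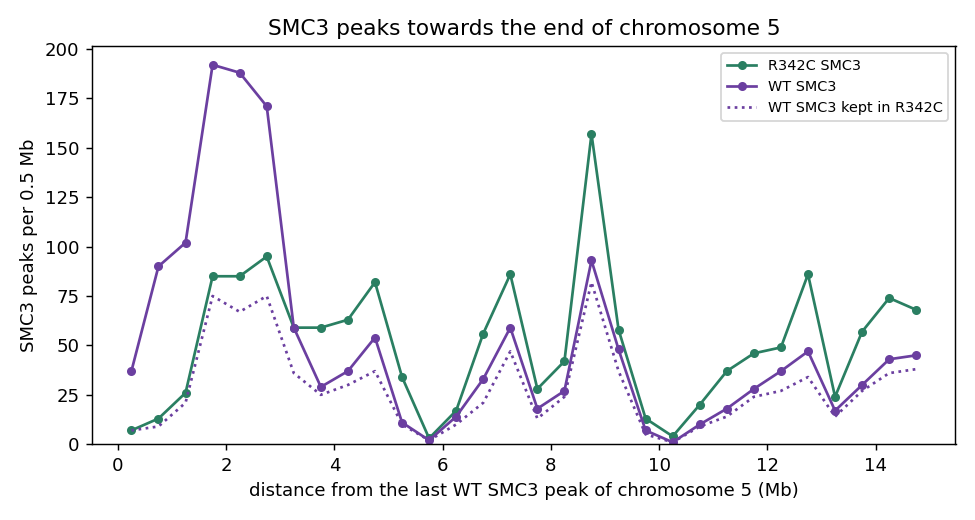
SMC3 peaks per 0.5 Mb (vertical axis) by distance from the last WT SMC3 peak of chromosome 5 (horizontal axis, Mb), in R342C (green) and WT (purple), with the WT peaks kept in R342C dotted. WT peaks outnumber R342C peaks in the last 3 Mb, 192 against 85 at the highest point, and R342C peaks outnumber WT peaks from 3.75 Mb on.

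Gene lists were described by the WT SMC3 peaks within 10 kb of their members, beside 73.8% kept (73.4 to 74.1) over all 21887 protein-coding genes. Peaks near pluripotency genes were kept in 245 of 281 cases (87.2%, 82.8 to 90.6). Nanog kept 17 of 17, Pou5f1, which encodes OCT4, 12 of 13, Esrrb 51 of 56, and Sox2 8 of 10, whereas Tet2, a DNA demethylation enzyme, kept 9 of 15 and Prdm14 7 of 11. The strongest peak of the list lay near Tbx3 (chromosome 5, 119690794 to 119691859), at 21.2 in R342C and 17.4 in WT. The strongest loss was 6.99 kb from Tet2 (chromosome 3, 133552127 to 133552381), at 4.37 in WT.

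Near genes of cohesin and its regulators 47 of 69 peaks were kept (68.1%, 56.4 to 77.9). Ctcfl, the germline paralogue of Ctcf, kept 8 of 8, Smc3 8 of 8 and Rad21 5 of 5. Pds5b, which lies in the end of chromosome 5 described above, kept 3 of 18, and without that region the list kept 44 of 51 (86.3%, 74.3 to 93.2). The strongest loss of the list, outside that region, was within Stag1 (chromosome 9, 100958188 to 100958337), at 4.01.

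The Hox clusters, whose CTCF sites separate active from silent chromatin during development, kept 43 of 63 peaks (68.3%, 56.0 to 78.4), including 13 of 13 at WT FLAG. Their strongest peak, over Hoxa3, Hoxa5 and Hoxa6 (chromosome 6, 52203389 to 52205735), had 16.8 in R342C and 18.7 in WT, and their strongest loss, near Hoxc10 (chromosome 15, 102963769 to 102963935), 3.48 in WT. Imprinted genes kept 52 of 64 (81.3%, 70.0 to 88.9), with the strongest peak within Usp29 (chromosome 7, 6940681 to 6941563), at 22.7 in R342C and 17.8 in WT. Their strongest loss was 0.306 kb from Plagl1, a growth-regulating zinc-finger gene (chromosome 10, 13090350 to 13090525), at 4.14, with an R342C SMC3 peak 256 bp away.

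Among the lists the clustered protocadherins, cell-surface proteins whose promoter choice depends on CTCF and cohesin, were the ones with losses at WT FLAG. They kept 31 of 51 peaks (60.8%, 47.1 to 73.0) and 10 of 15 at WT FLAG, against all of those in each other list. Neighbouring genes share peaks. Pcdha1 to Pcdha5 each kept 1 of 4, and 0 of 2 at WT FLAG, and Pcdhga1 kept 28 of 42, and 8 of 9 at WT FLAG. The strongest loss lay within 10 kb of Pcdhb7 and Pcdhb8 (chromosome 18, 37354999 to 37355117), at 4.40 in WT, with FLAG values of 5.33 in R342C and 4.92 in WT. Neural genes kept 15 of 16 peaks, and the lost one was 3.70 kb from Sox1 (chromosome 8, 12391656 to 12391817), at 3.71 in WT. Their strongest peak was within 10 kb of Nes, a neural intermediate filament, and 0.161 kb from Bcan, the nearest gene (chromosome 3, 87986772 to 87987369), at 11.6 in R342C and 11.7 in WT. Mesoderm and endoderm genes kept 20 of 28. The peak near Eomes (chromosome 9, 118489507 to 118490199) had 11.1 in R342C and 11.5 in WT, and the strongest loss, within Gata6 (chromosome 18, 11053247 to 11053462), had 3.07 in WT and an R342C SMC3 peak 137 bp away.

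Set beside the other mutants, R342C was among those that kept most WT cohesin. All comparisons share the WT lists and are given side by side. At WT FLAG, R342C kept 96.6%, R448Q 98.0%, R377H 91.4%, K365T 90.0%, R377C 87.5%, S354F 81.7%, R339Q 78.9%, H455R 78.3% and Q418R 74.7%. Away from CTCF, R342C kept 64.5%, against 14.5% in Q418R to 70.1% in R448Q. R339Q, the mutant nearest in residue number, kept 39.6% there and carries the tag b2. The tag b1 alone, which WT and R342C carry, also stands on R448Q, R377H (63.0%), H455R (57.2%) and K365T (47.2%). R377C (51.6%) and S354F (40.9%) carry both b1 and b2, and Q418R carries b3. Whether the shares kept follow the tag was not tested.

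List lengths ran from 42030 SMC3 peaks in Q418R, which had the lowest of these shares, to 153647 in R448Q, which had the highest. Between these ends length and share did not always go together. R377H, with 120444 peaks, kept less than R342C, with 112747. With the 42030 strongest peaks of every list, R342C kept 93.6% at WT FLAG and 49.8% away from CTCF, R448Q 93.8% and 48.3%, R377H 86.1% and 48.5%, and H455R 72.0% and 49.4%. The difference between WT FLAG peaks with and without a mutant's own FLAG, weighted over deciles of WT SMC3 value, was 5.09 points in R342C and 4.43 in R448Q. In the other 7 mutants it ran from 9.39 in R377C to 41.3 in S354F. It was not tested whether these values differ beyond replicate spread, since each list is pooled.

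**Figure D5:**
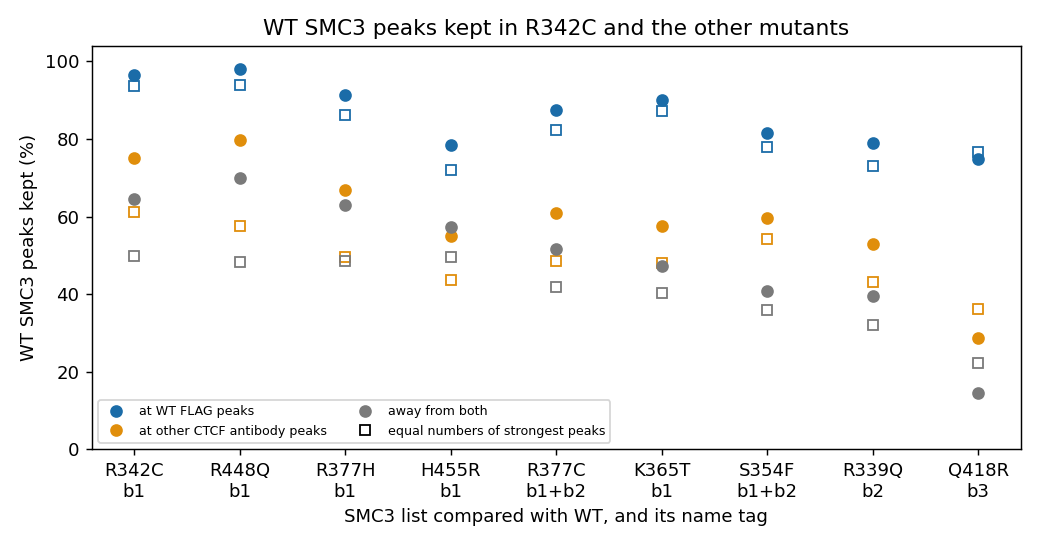
Share of WT SMC3 peaks kept (%, vertical axis) in R342C and the 8 other mutants, with the tag of each list under its name; filled circles are full lists and open squares the 42030 strongest peaks of every list. R342C and R448Q lie highest at WT FLAG peaks, 96.6% and 98.0%.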

How the data were processed

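SMC3, FLAG and CTCF antibody ChIPmentation peaks were read from the deposited lists, 1 per group with replicates pooled by the authors. The submitters' processing notes name mm10, Bowtie2, MACS2, deepTools and Trim Galore without roles, and neither their versions nor any filter was found in the labels. The value in each deposited list is a score of the authors' caller, whose measure is not named. FLAG lists repeat an interval per summit, and repeats were merged. Depth is unknown. IgG and untreated FLAG samples were not used here.

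Overlaps of 1 bp were computed with Python 3.11.15, numpy 2.4.6 and pandas 2.3.3 and compared with bedtools 2.31.1 and with simulated lists of known overlap; figures used matplotlib 3.10.9. Differences between shares have Newcombe intervals. Genes are RefSeq spans on GRCm38.p6 (34614, of which 21887 protein-coding), and 22 of 23 imprinted symbols matched. Sites were named by the nearest protein-coding gene and taken by strength within each class, 6 for losses at WT FLAG and 3 to 5 for the other classes, and per gene list the strongest peak and the strongest loss. Of these sites, 1 is not reported here. List members named beyond these were chosen after their values were seen. The planned central site sequences and CTCF protein stretch were not used, and promoter windows were shown instead. Members and lists were chosen with earlier results of these data known.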

Additional observations from a re-analysis of the deposited data

How the results depend on the processing

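Each of the 6 summary values was recomputed under the alternatives. Of 42 recomputed values, 10 stayed within the interval of the reported value and 32 moved beyond it. A share kept or gained cannot change sign, so only the difference with and without R342C FLAG could have reversed, and it did not. With a reciprocal overlap of 50%, the share kept was 43.9% of all WT SMC3 peaks, 76.9% at WT FLAG, 41.5% at other antibody peaks and 34.5% away from both, 72.0% of R342C peaks were gained, and the difference with and without R342C FLAG was 9.69 points. With a match within 500 bp the shares kept were 81.4%, 96.9%, 85.4% and 74.0% in that order, and 45.3% were gained. In the upper 50% of each list they were 78.1%, 95.9%, 74.2% and 65.6%, with 54.4% gained and a difference of 14.1 points. With equal numbers of strongest peaks they were 62.3%, 95.04%, 63.8% and 50.5%, with 42.7% gained and a difference of 15.5 points. With treated antibody peaks only, 65.8% were kept away from both. The difference with and without R342C FLAG was 5.09 points when weighted over deciles of WT SMC3 value and 12.7 points over deciles of WT FLAG value. The cause of these shifts was not tested. Leaving out the end of chromosome 5 and leaving out chromosomes 5 and 6 were chosen after seeing the data. Without the end of chromosome 5, 73.7% of all peaks and 75.7% at other antibody peaks were kept. Without chromosomes 5 and 6, 74.96% of all peaks, 75.8% at other antibody peaks and 66.4% away from both were kept, and 57.2% were gained.

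No paired analysis was possible because the replicates of each group are pooled in 1 list, and for the same reason no replicate was left out. Unknown depth and unstated filters limit every count: a lost or gained peak is one that the other list does not hold, at whatever depth it was called, and a weak peak below the caller's threshold counts as absent. Sizes of scores were compared within lists only, and ranks between them.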
